A study of Mus musculus with 8 samples.

Results

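The La-related protein family comprises RNA-binding proteins that share a La motif, and 7 of its genes were chosen here by symbol from the 23427 genes of an mRNA-seq table of differentiating mouse oligodendrocyte precursor cells (OPCs). They were *Ssb* (which encodes La itself), *Larp7*, *Larp1*, *Larp1b*, *Larp4*, *Larp4b* and *Larp6*. All 7 were found in the table, each in a single entry, and all 7 passed the filter on low values, which asked for 1 FPKM or more in 2 libraries or more. *Larp6* passed it only through its Day 3 libraries, since 1 of its 6 earlier libraries reached 1 FPKM, so it could be tested only because it was higher on Day 3. FPKM counts sequenced fragments after division by transcript length and by the library's mapped fragments. This puts genes and libraries on a common scale, but changes between days still depended on the scaling between libraries, as given below.

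The cells were primary OPCs of wild-type C57BL/6J mice, isolated by immunopanning against PDGFRα from cortices pooled from 3 pups at postnatal day 7. Differentiation into oligodendrocytes (OLs) was started by removing growth factors and adding the thyroid hormone T3, and RNA was taken on Day 0, Day 1, Day 2 and Day 3. All groups had the same genotype, and the later days differed from Day 0 in the medium as well as in time, with 2 libraries per day and 8 in all, which the study describes as independent experiments. The culture is a purified population without neurons to myelinate, and the labels and the methods describe its medium and the RNA extraction kit differently.

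La-family proteins use the La motif, usually joined to an RNA recognition motif, to hold RNA ends. La, the product of *Ssb*, binds the uridine-rich 3′ ends of new RNA polymerase III transcripts and protects them. Larp7 holds the 7SK RNA and so keeps the elongation factor P-TEFb in store. Larp1 binds the cap and the 5′ terminal oligopyrimidine tract of mRNAs for ribosomal proteins and acts downstream of the kinase complex mTORC1, whereas Larp4 and Larp4b bind poly(A) and its binding protein. Larp6 is known for binding a stem-loop in collagen mRNAs. In OLs, which must produce large amounts of myelin protein in a short time, RNA-binding proteins are studied as regulators after transcription.

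The genes lie apart in the genome (GRCm38, GENCODE M21). *Larp6* (ENSMUSG00000034839.5) lies on the forward strand of chromosome 9 between 60712989 and 60738801, with 1 annotated transcript of 3 exons and 2440 bases. *Larp7* (ENSMUSG00000027968.11) lies on the reverse strand of chromosome 3 between 127536714 and 127553349, and *Ssb* (ENSMUSG00000068882.13) on the forward strand of chromosome 2 between 69861562 and 69871846. *Larp1* lies on chromosome 11, *Larp1b* on chromosome 3, *Larp4* on chromosome 15 and *Larp4b* on chromosome 13. No stretch of 31 bases was shared between the transcripts of any pair of members, so reads of one cannot be taken for reads of another by sequence. Stretches shared with other annotated genes made up 20.1% of those of *Larp7*, 21.9% of *Ssb*, 16.8% of *Larp4* and 10.3% of *Larp1*, and those values are uncertain to the degree that the counting split such reads. *Larp6* shared none. Exons of *Ssb* overlap *Mettl5* over 169 bases and *Gm13625* over 431 bases, both on the opposite strand. Of the 490 shared stretches of *Ssb*, 401 were shared with *Gm13625*, so that share and this overlap are not separate limits. Exons of *Larp4* overlap *2310068J16Rik* over 204 bases. Whether fragments were counted by strand is not given in the sources used here.

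The encoded proteins differ in length and are alike mainly within pairs. The open reading frames gave 1072 residues for Larp1, 741 for Larp4b, 719 for Larp4, 570 for Larp7, 541 for Larp1b, 492 for Larp6 and 415 for La. In local alignments, Larp1 and Larp1b were identical at 49.4% of 423 aligned residues, and Larp4 and Larp4b at 43.7% of 652. Larp6 had no such partner, with 32.0% of 228 residues identical to Larp7 and 35.0% of 80 to La.

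The promoters of the members whose mRNA changed most in either direction, *Larp7* and *Larp6*, and of the most abundant member, *Ssb*, are shown as the bases before the RefSeq transcription start (RefSeq, GRCm38.p6, 5′ to 3′ on the gene's strand). Capitals mark matches to the letters of 7 motifs, searched on both strands. The CRE was searched as TGACGTCA, the CCAAT box as CCAAT, the GC box as GGGCGG, the E-box as CACGTG, the TATA box as TATAAA, the CHR element of cell cycle genes as TTTGAA and the E2F site as TTCCCGCC. For *Larp6* only the 118 bases before the annotated gene are printed.
*Larp7*, chr3:127553350-127553599, reverse strand: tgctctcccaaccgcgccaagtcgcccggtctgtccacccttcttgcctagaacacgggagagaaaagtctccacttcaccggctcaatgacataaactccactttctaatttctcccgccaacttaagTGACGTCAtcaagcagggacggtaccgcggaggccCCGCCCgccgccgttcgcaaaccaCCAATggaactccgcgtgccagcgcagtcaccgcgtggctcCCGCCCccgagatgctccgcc
*Ssb*, chr2:69861312-69861561, forward strand: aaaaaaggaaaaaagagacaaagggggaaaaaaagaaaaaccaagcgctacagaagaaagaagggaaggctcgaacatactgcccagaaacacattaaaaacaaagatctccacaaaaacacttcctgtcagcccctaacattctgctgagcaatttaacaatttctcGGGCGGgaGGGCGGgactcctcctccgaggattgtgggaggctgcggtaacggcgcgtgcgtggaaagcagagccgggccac
*Larp6*, chr9:60712871-60712988, forward strand: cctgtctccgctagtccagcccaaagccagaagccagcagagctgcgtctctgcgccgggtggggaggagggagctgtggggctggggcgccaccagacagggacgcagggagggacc

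In the *Larp7* sequence a CRE, a CCAAT box and 2 GC boxes were found, in the *Ssb* sequence 2 GC boxes, and in the printed *Larp6* bases none of the 7 motifs. Their GC content was 61.6%, 49.6% and 70.3%. Over the full promoter windows of 250 bases before the start, the CRE was found in *Larp7* alone of the 7 members. It was found in 1.55% of 32851 mouse promoter windows of that length. The CCAAT box was found in *Larp4b* and *Larp7* (33.8% of all windows), and the GC box in every member except *Larp1b* (32.7% of all windows). No member's window held the E-box, the TATA box, the CHR or the E2F letters, which were found in 6.02%, 12.4%, 16.0% and 1.86% of all windows. These matches describe letters and not sites in use.

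The sequencing depth, which was read from the spacing of the lowest FPKM values, ranged from 950000 to 1530000 fragments per library, with 66.1% to 70.8% of the low values examined in each library within 0.1 of a whole number of fragments. The labelled cell type was checked against its markers. The summed FPKM of the OPC markers *Pdgfra* and *Cspg4* was between 462 and 542 at Day 0 and between 7.31 and 30.2 on Day 3, whereas that of 6 OL markers was between 787 and 1074 on Day 0 and between 18963 and 26846 on Day 3. All 5 microglial markers were at 0 in all 8 libraries, the summed endothelial markers did not exceed 0.428, and the summed fibroblast and mural markers did not exceed 0.959. The sum of 5 neuron markers was 64.4 and 31.4 on Day 0 and 233 and 115 on Day 3. *Tubb3* made up 231 and 113 of the Day 3 sums, while *Rbfox3* and *Stmn2* stayed below 1 FPKM in every library. *Snap25* went from 2.15 and 8.46 FPKM on Day 0 to 0 and 1.48 on Day 3, and *Syt1* from 2.05 and 1.72 to 0.969 and 1.10. Astrocyte markers separated the replicates, with sums between 50.2 and 78.6 in replicate 1 and between 260 and 831 in replicate 2. In these bulk samples, fewer cells of a type and less RNA per cell cannot be told apart.

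*Larp7*, *Ssb*, *Larp1* and *Larp4b* fell from Day 0 to Day 3, and *Larp4* and *Larp1b* did not pass the test. In limma on log2(FPKM + 1), with all 8 libraries and adjustment over the 12208 genes tested, 4 of the 7 members were called lower, against 26.3% of all genes. *Larp6* alone was called higher, and 12.0% of all genes were. Nothing is read from that count of 1, since the late rise of *Larp6* was known when the family was chosen and let it pass the filter. Both Day 3 libraries were below both Day 0 libraries in 6 of the 7 members, a pattern found in 48.6% of all genes, and above them in 1 member, found in 22.8% of all genes. The median change of the members was −0.68 on the log2 scale, and that of all genes tested was −0.31. With median ratio scaling between libraries the median of all genes was −0.04 and the split of calls turned from 1460 higher and 3207 lower to 2135 higher and 2047 lower, so each change over the 3 days is also given below against the all-gene median, as the difference from it. With that scaling 2 members, *Larp7* and *Ssb*, were called lower.

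**Figure D1:**
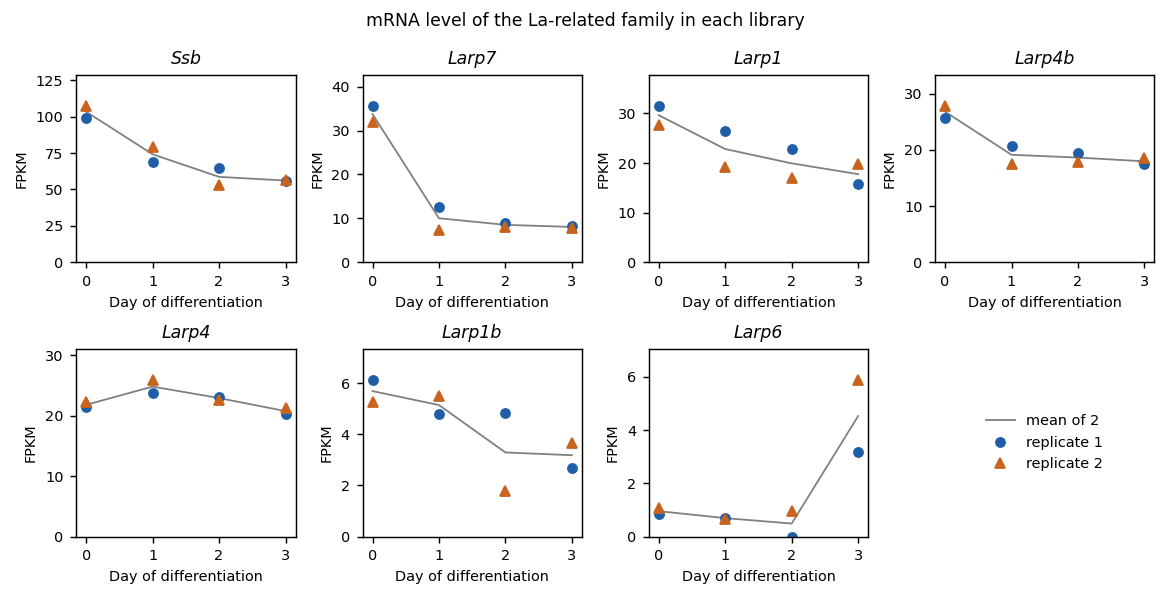
mRNA level (FPKM, vertical axis starting at 0 and scaled per gene) of the 7 members by day of differentiation (horizontal axis), with a circle for replicate 1, a triangle for replicate 2 and a line through the mean of 2. *Larp7* lies between 31.9 and 35.7 FPKM on Day 0 and below 13 afterwards, *Ssb* declines over Day 1 and Day 2, *Larp4* stays between 20.2 and 25.9, and *Larp6* exceeds 1.1 FPKM only on Day 3.

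*Larp7* showed the largest fall of the family, and nearly all of it took place within the first day. Before differentiation (Day 0) the replicates gave 35.7 and 31.9 FPKM, followed by 12.7 and 7.37 (Day 1), 8.90 and 8.14 (Day 2), and 8.21 and 7.87 (Day 3). The 2 Day 0 libraries stood far above the 6 later ones and did not overlap with them, and among the later libraries only replicate 1 of Day 1 lay above 9 FPKM. The mean thus went from 33.8 ± 2.66 (SD, n = 2) on Day 0 to 10.0 ± 3.76 on Day 1, or 29.7% of the Day 0 level, and ended at 8.04 ± 0.239, which was 4.20-fold lower than on Day 0. From Day 0 to Day 1 the log2 change was −1.70 (SE 0.25, limma adjusted p = 0.00371), which is −1.63 against the all-gene median, and *Larp7* was the only one of the 7 members called lower, against 7.56% of all genes. At an unadjusted p under 0.05, *Ssb* and *Larp4b* were lower as well. No member was called higher by limma in that comparison, against 5.04% of all genes, and 0 were higher at an unadjusted p under 0.05. From Day 0 to Day 3 the log2 change was −1.94 (SE 0.25, limma adjusted p = 0.000731), again −1.63 against the all-gene median, and it was −1.99 within replicate 1 and −1.89 within replicate 2. Estimated fragments went from 116 and 82 on Day 0 to 33 and 20 on Day 1, so that counting error was small beside the change. The call from Day 0 to Day 1 was lost without replicate 1 of Day 0 (limma adjusted p = 0.0501) and kept without replicate 2 of Day 0 (limma adjusted p = 0.0391). Of the 2 Day 1 libraries, the one with more *Larp7* also had more OPC marker RNA (a summed FPKM of 83.3 against 14.4), and the part of this in the *Larp7* level was not tested.

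*Ssb* was the most abundant member on every day, and it declined more slowly than *Larp7*. The replicates gave 99.3 and 108 FPKM (Day 0), 69.1 and 79.2 (Day 1), 64.5 and 52.8 (Day 2), and 55.6 and 56.7 (Day 3). Each day's pair lay below the pair of the day before, except that the Day 3 values fell inside the range of Day 2. The mean was 103 ± 5.79 FPKM on Day 0 and 56.1 ± 0.766 on Day 3, a 1.84-fold lower level. The log2 change over the 3 days was −0.87 (SE 0.15, limma adjusted p = 0.00237), which is −0.56 against the all-gene median. The step to Day 1, with a log2 change of −0.48, did not pass the test (limma adjusted p = 0.0700), nor did the step from Day 1 to Day 2, with −0.34 (limma adjusted p = 0.225). The ratio of *Ssb* to *Larp7* was 2.79 and 3.37 on Day 0 and between 5.45 and 10.7 in the 6 later libraries, and the ranges of the later days overlapped.

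*Larp1* fell moderately. It was measured at 31.5 and 27.7 FPKM (Day 0), 26.4 and 19.3 (Day 1), 22.8 and 17.0 (Day 2), and 15.8 and 19.7 (Day 3). Replicate 1 was above replicate 2 on every day but Day 3, the days between overlapped, and Day 0 alone lay above all later libraries. The log2 change from Day 0 to Day 3 was −0.71 (SE 0.22, limma adjusted p = 0.0361), a 1.67-fold lower mean, and −0.40 against the all-gene median. It was −0.95 within replicate 1 and −0.47 within replicate 2. The call was lost under each of 3 other scalings between libraries (to the same sum, by median ratio and by quantiles) and without any one of the 4 libraries compared, with adjusted p up to 0.183.

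*Larp1b*, the shorter relative of *Larp1*, was measured at a much lower level. The replicates gave 6.12 and 5.26 FPKM (Day 0), 4.78 and 5.50 (Day 1), 4.82 and 1.76 (Day 2), and 2.69 and 3.67 (Day 3). Both Day 3 libraries lay below both Day 0 libraries, but replicate 2 of Day 2 was the lowest of all 8. These values rested on 6 to 23 estimated fragments per library, taking a transcript of 2497 bases. The longest annotated transcript of *Larp1b* has 4156 bases and would give more fragments. The log2 change from Day 0 to Day 3 was −0.68 (95% interval −1.56 to 0.19, limma adjusted p = 0.188), so that neither no change nor a change as large as that of *Ssb* lay outside the interval. *Larp1* exceeded *Larp1b* in every library, by 3.50-fold to 9.67-fold.

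The poly(A)-binding pair, *Larp4* and *Larp4b*, changed places after Day 0. *Larp4b* was measured at 25.7 and 27.8 FPKM (Day 0), 20.7 and 17.5 (Day 1), 19.4 and 17.8 (Day 2), and 17.4 and 18.5 (Day 3). Day 0 lay above all 6 later libraries, which overlapped with each other. The log2 change from Day 0 to Day 3 was −0.55 (SE 0.17, limma adjusted p = 0.0308), a 1.49-fold lower mean and −0.24 against the all-gene median. This call, like that of *Larp1*, was lost under each of 3 other scalings and without any one of the 4 libraries compared, with adjusted p up to 0.274.

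*Larp4* varied least between days in relation to its own level. It was measured at 21.4 and 22.2 FPKM (Day 0), 23.7 and 25.9 (Day 1), 23.1 and 22.7 (Day 2), and 20.2 and 21.3 (Day 3). Day 1 gave the highest pair and Day 3 the lowest, and no day's mean was under 83.6% of the highest. The log2 change from Day 0 to Day 3 was −0.07 (95% interval −0.41 to 0.27, limma adjusted p = 0.744), which is 0.25 above the median of all genes, and it took a positive sign under each of 3 other scalings without passing the test. The ratio of *Larp4* to *Larp4b* was 0.83 and 0.80 in the Day 0 libraries and between 1.15 and 1.48 in the 6 later ones, without overlap.

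**Figure D2:**
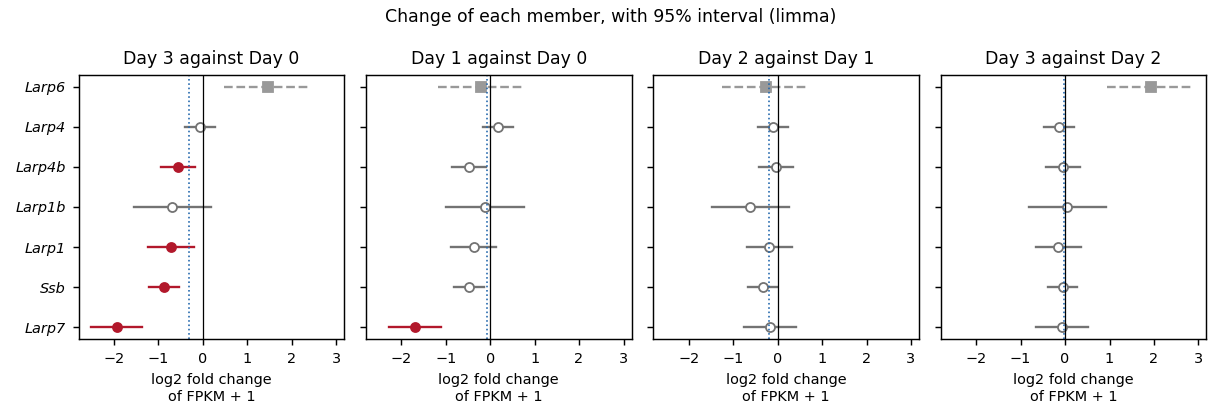
Log2 fold change of FPKM + 1 (horizontal axis) of each member (vertical axis) in 4 comparisons of days, with 95% intervals from limma. Filled red points have an adjusted p under 0.05, open points do not, grey squares show *Larp6* as a description without a test, and the dotted line is the median of all genes tested (−0.31 from Day 0 to Day 3). *Larp7*, *Ssb*, *Larp1* and *Larp4b* are filled and lie to the left over 3 days, and *Larp7* alone is filled from Day 0 to Day 1.

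*Larp6* was the least abundant member until Day 2 and was higher on Day 3. The replicates gave 0.847 and 1.06 FPKM (Day 0), 0.707 and 0.678 (Day 1), 0 and 0.976 (Day 2), and 3.18 and 5.88 (Day 3). Both Day 3 libraries lay above all 6 earlier ones, which overlapped between days. The late rise of *Larp6* was known when the family was chosen, so its course is a description and no test is given. On the log2(FPKM + 1) scale the difference of Day 3 from Day 0 was 1.46 (SE 0.43), which is 1.77 against the all-gene median, with 1.18 within replicate 1 and 1.74 within replicate 2. The difference of Day 3 from Day 2 was 1.93 (SE 0.43).

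These *Larp6* values rested on few fragments. The transcript length was fitted to bring these 8 values close to whole numbers of fragments, which gave 2328 bases against 2440 annotated. All 8 then came within 0.018 of a whole number, a closeness that the fit aimed at. The estimated fragments were 3 and 3 (Day 0), 2 and 2 (Day 1), 0 and 3 (Day 2), and 8 and 13 (Day 3). The value of 0 allows up to 3 fragments, or 1.07 FPKM in that library, and none of the 6 early libraries held more than 3 fragments. Over the pooled libraries of each day, 21 fragments on Day 3 against 6 on Day 0 gave a rate ratio of 4.72 (exact 95% interval 1.84 to 14.3), against 4 on Day 1 a ratio of 6.41 (2.16 to 25.7), and against 3 on Day 2 a ratio of 8.72 (2.60 to 45.7). These intervals cover counting error only and pool the 2 libraries of a day. They are no test of the rise, which was known when the family was chosen. Without replicate 2 of Day 3 the difference from Day 0 was 1.10 on the log2 scale. Replicate 2 of Day 3 also had the highest summed astrocyte marker level, 831 FPKM against 78.6 in replicate 1, and in each replicate that sum was highest on Day 3, as *Larp6* was. Across replicates the order differed. In replicate 2 the sum was 260, 396 and 539 FPKM on Day 0, Day 1 and Day 2, with *Larp6* at 1.06, 0.678 and 0.976. In replicate 1 of Day 3 it was 78.6, with *Larp6* at 3.18. The summed neuron markers were also highest on Day 3 in both replicates, at 233 FPKM in replicate 1 and 115 in replicate 2, the reverse of the order of *Larp6*. *Tubb3* made up 231 and 113 FPKM of these sums, and *Snap25* and *Syt1* were lower on Day 3 than on Day 0 in both replicates. The summed OL markers were highest on Day 3 as well, at 18963 FPKM in replicate 1 and 26846 in replicate 2, in the order of *Larp6*. The part of any of these cell types in the *Larp6* level was not tested.

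**Figure D3:**
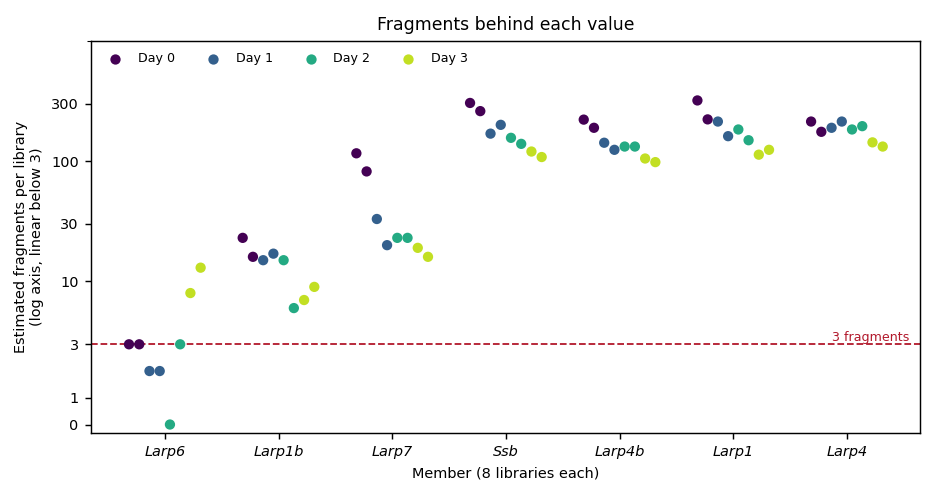
Estimated sequenced fragments per library (vertical axis, logarithmic above 3 and linear below) for each member (horizontal axis), with 8 points per member coloured by day. *Larp6* rests on 0 to 3 fragments up to Day 2 and on 8 and 13 on Day 3. *Larp1b* rests on 6 to 23 for a transcript of 2497 bases, and *Ssb*, *Larp1*, *Larp4* and *Larp4b* on 98 or more.

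Of its relatives, 5 were measured on more estimated fragments than *Larp6* in every library. *Larp1b* was measured on more until Day 2, and its place on Day 3 depends on the transcript length taken. *Ssb*, *Larp1*, *Larp4* and *Larp4b* had between 98 and 319 fragments in every library and *Larp7* between 16 and 116. *Larp6* reached 21.1%, 15.3% and 10.8% of its Day 3 mean on Day 0, Day 1 and Day 2, whereas 5 of the other 6 had their highest mean on Day 0 and *Larp4* had it on Day 1. The mean of *Ssb* was 108 times that of *Larp6* on Day 0 and 12.4 times on Day 3. For *Larp7*, the member that its protein aligned with over the longest stretch, the ratio to *Larp6* went from 35.4 to 1.78.

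The order of levels within the family therefore changed with differentiation. On Day 0 it was *Ssb*, *Larp7*, *Larp1*, *Larp4b*, *Larp4*, *Larp1b* and *Larp6*, and only *Larp1* and *Larp4b* overlapped as neighbours. On Day 1 and Day 2, *Larp7* had moved to the fifth place, behind *Larp4*, *Larp1* and *Larp4b*, whose libraries overlapped with those of their neighbours. On Day 3, *Larp6* at 4.53 ± 1.91 FPKM stood beside *Larp1b* at 3.18 ± 0.696, and these overlapped. The summed FPKM of the 7 genes was 221 and 223 on Day 0 and 123 and 134 on Day 3. Within this sum *Larp7* went from 16.2% and 14.3% to 6.67% and 5.89%, *Larp4* from 9.69% and 9.94% to 16.4% and 15.9%, and *Larp6* from 0.384% and 0.474% to 2.58% and 4.40%. *Ssb* kept between 42.4% and 51.0% in all libraries.

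The later steps gave no further calls in the family. From Day 1 to Day 2, 0 of the 7 members were called higher (2.16% of all genes) and 0 lower (1.73% of all genes) by limma, and at an unadjusted p under 0.05 *Ssb* alone was lower. From Day 2 to Day 3, 0 were called higher (0.246% of all genes) and 0 lower (0.0491% of all genes), and at an unadjusted p under 0.05 none of the 6 relatives of *Larp6* was higher or lower.

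The genes that work with the family were followed in 5 lists. Of the 12 genes of the 7SK particle and P-TEFb, partners of *Larp7*, 1 rose and 0 fell from Day 0 to Day 3 by limma (1 and 1 at an unadjusted p under 0.05), against 12.0% of all genes called higher and 26.3% called lower, and their median log2 change was −0.19, against −0.31 for all genes. The riser was *Ell2*, an elongation factor, which went from a mean of 11.9 to 45.8 FPKM (log2 change 1.88, limma adjusted p = 0.00541). Over the first day, in which *Larp7* fell, 0 of the 12 were called in either direction by limma, with 1 higher and 1 lower at an unadjusted p under 0.05 and 5.04% and 7.56% of all genes called. The lower one was *Hexim2*, from a mean of 2.36 to 0.421 FPKM (log2 change −1.22, limma adjusted p = 0.0517). The higher one was *Ccnt2* (0.53, limma adjusted p = 0.0905). Nothing is read from 0 calls in a list of 12 genes. From Day 0 to Day 3 the median of the list took a positive sign, 0.13, with median ratio scaling.

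Of 31 genes of RNA polymerase III and small RNA maturation, whose transcripts La binds, 30 were tested, 12 fell and 1 rose, against 26.3% and 12.0% of all genes, with a median of −0.56. The largest falls were those of *Lsm2* (log2 change −1.88, limma adjusted p = 0.000294) and *Lsm4* (−1.63, limma adjusted p = 0.000351), whose products form the ring that binds the end of U6 RNA. *Brf1*, a subunit of the initiation factor TFIIIB, rose (0.94, limma adjusted p = 0.00649). Over the first day 4 of the 30 fell and 0 rose by limma (10 and 2 at an unadjusted p under 0.05), against 7.56% and 5.04% of all genes. With median ratio scaling, 7 fell and 1 rose over the 3 days.

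Of 24 genes of poly(A) binding and deadenylation, partners of *Larp4* and *Larp4b*, 23 were tested, 6 fell and 1 rose, with a median of −0.41. The share that fell was close to the 26.3% of all genes called lower, and the share that rose was below the 12.0% called higher. *Pabpc4*, a cytoplasmic poly(A)-binding protein, fell (log2 change −2.15, limma adjusted p = 0.000242), as did *Gnb2l1* (−1.73, limma adjusted p = 0.000151), which encodes the ribosome-bound scaffold Rack1, and *Pabpc1*, from 400 to 127 FPKM. *Paip2b*, an inhibitor of poly(A)-binding protein, rose (1.05, limma adjusted p = 0.00209). With median ratio scaling the counts were 3 and 3.

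Of 19 genes of mTORC1 and cap binding, partners of *Larp1*, 18 were tested, 7 fell and 0 rose by limma (8 and 0 at an unadjusted p under 0.05), against 26.3% and 12.0% of all genes, with a median of −0.31, the same as that of all genes. *Eif4ebp1*, a repressor of the cap-binding protein, fell (log2 change −1.95, limma adjusted p = 0.00532), and so did *Rps6* (−1.60, limma adjusted p = 0.000187), a ribosomal protein that the pathway phosphorylates. With median ratio scaling 4 fell and 1 rose.

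The last list held 17 genes for collagens, for their processing and for partners of *Larp6*. Of these, 11 were tested, 4 fell and 1 rose, against 26.3% and 12.0% of all genes, with a median of −0.27. *Myh10*, a nonmuscle myosin, fell (log2 change −2.67, limma adjusted p = 7.99e-05), as did *Vim*, which encodes the intermediate filament vimentin (−1.93, limma adjusted p = 0.000607). *Plod1*, a lysyl hydroxylase of collagen, rose (0.97, limma adjusted p = 0.0143). The collagen mRNAs themselves were hardly present: *Col1a2* was listed at 0 on all days and *Col1a1* and *Col3a1* did not pass the filter. The median took a positive sign, 0.05, with median ratio scaling.

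**Figure D4:**
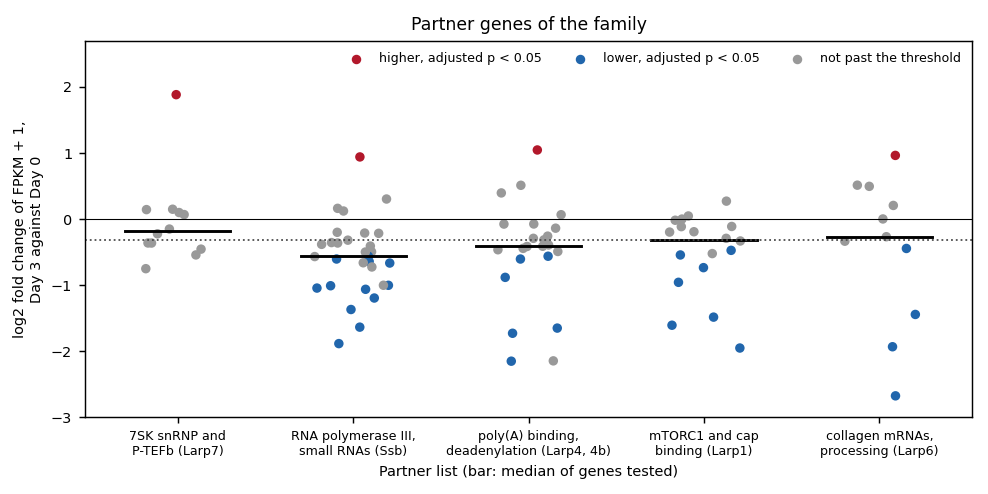
Log2 fold change of FPKM + 1 from Day 0 to Day 3 (vertical axis) of the genes tested in 5 partner lists (horizontal axis), with red points for genes higher and blue points for genes lower at an adjusted p under 0.05 and grey points for the others. Black bars mark the median of each list and the dotted line that of all genes tested (−0.31); the bars lie between −0.56 for RNA polymerase III and −0.19 for 7SK, and those of the 7SK and collagen lists turn positive with median ratio scaling.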

How the data were processed

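mRNA of mouse primary OPCs on 4 days of differentiation, 2 libraries per day, was sequenced with stranded paired-end libraries. From the reads, the authors made FPKM per gene and library in OmicSoft ArrayStudio and deposited these values without pooling. The submitters' notes name the build mm10. The aligner, gene model and strand setting are not given in the sources used here, and the DESeq2 test of the study's methods needs counts and was not run. Days and replicate numbers came from the labels.

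log2(FPKM + 1) of the 12208 genes that reached 1 FPKM in 2 or more libraries was fitted by day with limma 3.58.1 (eBayes with a trend, R 4.3.3), two-sided, adjusted over these genes (Benjamini-Hochberg) and called at an adjusted p under 0.05. With 2 libraries a day, no permutation test of a pair of days could reach that threshold. Nothing says that the replicates came from separate animals, so p-values measure the spread between libraries. Replicate differences from the labels' numbers correlated by 0.164 to 0.285 between every pair of days over genes, so the numbers were taken to pair the libraries. The changes within replicates and the replicate block used this pairing, and the main fit did not. Depth was estimated with transcript lengths of GENCODE M21, and intervals are exact. Fragments of a member were estimated with its transcript of the longest coding sequence, and those of *Larp6* with a fitted length. Promoter windows came from RefSeq and alignments used Biopython 1.88 with Python 3.11.15. The fit was tested on simulated data.

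The members and partner lists were chosen with earlier results of these data known. Genes named are the members, the 3 genes most correlated with each, and from each list the largest called rises and falls. *Pabpc1*, *Hexim2*, *Ccnt2* and the collagens were named after their values were seen. Alternatives tried were a pseudocount of 0.1, no filter, a filter at 10 FPKM, 3 other scalings, eBayes without a trend, a fit limited to the 2 days of a comparison, a replicate block, and leaving out each library.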

Additional observations from a re-analysis of the deposited data

How the results depend on the processing

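From Day 0 to Day 3, *Larp7* (log2 change between −2.05 and −1.64, adjusted p at most 0.0126) and *Ssb* (between −0.93 and −0.56, adjusted p at most 0.0265) kept their direction and their call in all 17 alternatives. The count of members called lower was 2 instead of 4 when libraries were rescaled to the same sum, with median ratio scaling and with quantile normalization, and 2 to 4 when each library was left out. The count called higher, which is *Larp6* alone and describes a known rise, was 0 instead of 1 with a pseudocount of 0.1 and with a filter of 10 FPKM, where *Larp6* and *Larp1b* were not tested, and 0 to 1 when each library was left out. From Day 0 to Day 1 the count called lower was 0 to 1 when each library was left out. With the replicate block no member's call changed (*Larp7* from Day 0 to Day 3, adjusted p = 0.000337; from Day 0 to Day 1, 0.00172). *Larp1* was also not called without a trend (adjusted p = 0.0611). The cause of these changes was not tested. Changes that were not called could turn sign. From Day 0 to Day 3, *Larp4* gave 0.081 rescaled to the same sum, 0.24 with median ratio scaling and 0.16 with quantile normalization. From Day 0 to Day 1, quantile normalization gave 0.11 for *Larp1b* and 0.066 for *Larp6*. From Day 1 to Day 2, median ratio scaling gave 0.0054 for *Larp1*, 0.16 for *Larp4b*, 0.082 for *Larp4* and 0.0094 for *Larp7*, rescaling to the same sum gave 0.0070 for *Larp4b*, and quantile normalization gave 0.12 for *Larp4b*, 0.017 for *Larp4* and 0.032 for *Larp7*. With each library left out, the step from Day 1 to Day 2 ranged from −0.40 to 0.033 for *Larp1*, −0.15 to 0.082 for *Larp4b*, −0.76 to 0.22 for *Larp6* and −0.52 to 0.18 for *Larp7*, and that from Day 2 to Day 3 from −0.35 to 0.049 for *Larp1*, −0.49 to 0.59 for *Larp1b*, −0.11 to 0.012 for *Larp4b* and −0.20 to 0.087 for *Ssb*. Depth limits *Larp6* up to Day 2, at or under 3 fragments, and *Larp1b*, at 6 to 23 estimated fragments for a transcript of 2497 bases.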

Other observations

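The genes whose log2(FPKM + 1) followed each member most closely were listed by Pearson's r over the 8 libraries, as a description over libraries that share days and depth. They were *Fam64a* (0.996), *Clspn* (0.996) and *Kif2c* (0.995) for *Larp7*, and *Hnrnpa3* (0.990), *Cand2* (0.987) and *Matr3* (0.987) for *Ssb*. For *Larp1* they were *Ikbkb* (0.986), *Eogt* (0.985) and *Efnb1* (0.985), and for *Larp1b* *2700050L05Rik* (0.980), *Cdr1* (0.975) and *Arid4a* (0.969). *Larp4b* was followed by *Cotl1* (0.988), *Gtse1* (0.985) and *Hmga2* (0.982), and *Larp4* by *Slc35b1* (0.984), *Ctnna2* (0.971) and *L1cam* (0.970). For *Larp6* they were *8430419L09Rik* (0.994), *Fam155a* (0.989) and *Pde4a* (0.983), over values of which 6 of 8 rest on at most 3 fragments. Within the family the closest pair was *Larp7* and *Larp4b* (0.975), closer than *Larp1* and *Larp4b* (0.883), and *Larp6* was negative with every other member (−0.617 to −0.213).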
